A study of Homo sapiens with 16 samples.

Results

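The comparison described here sets K562 cells after 72 h in 25 nM phorbol 12-myristate 13-acetate (PMA) against the same line before treatment, at 0 h. It takes every library that the labels place in either group, which is 2 at 72 h and 2 at 0 h, so 4 of the 16 libraries in the series. K562 is an established human leukaemia cell line with erythroid and megakaryocytic features, grown here as an unmodified line with no vector or transgene named in the labels. Total RNA was depleted of ribosomal RNA and sequenced, and the deposited tables give an estimated number of reads per transcript, summed here per gene. The medium was changed after 24 and 48 h, and the untreated cells were taken at 0 h only. PMA, 72 h in culture and the medium changes therefore cannot be told apart in this comparison. Nothing in the labels says whether the libraries of a group came from separate cultures. Each p-value rests on a spread between replicates that was estimated from all 16 libraries, other time points included. That spread may be technical.

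PMA mimics diacylglycerol, the lipid messenger that switches on protein kinase C and the exchange factors of the RasGRP family. These feed the RAF, MEK and ERK kinase cascade, which acts on immediate-early transcription factors such as the EGR, FOS and JUN families and on their feedback inhibitors, the dual-specificity phosphatases and the Sprouty proteins. In K562 cells PMA is widely used to stop growth, to make the cells attach and spread, and to bring on features of megakaryocytes, the large marrow cells that shed platelets, while red cell features recede.

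Library totals were 29562385 and 29241520 estimated reads at 0 h and 37976689 and 32063125 at 72 h. A count of 3 reads, the limit below which a gene was taken as not detectable, corresponded to 0.0836 to 0.0966 CPM (reads as a rate per library, after the TMM scaling of library sizes). The root mean square difference in log2 CPM was 0.708 between the 0 h replicates and 0.69 between the 72 h replicates, against 1.9 to 1.97 between groups. In each pair of replicates the difference between them followed the GC content of the genes, with r = -0.702 at 0 h and r = -0.548 at 72 h across 9957 genes, which are not independent replicates. The fold change between the groups followed it less, with r = -0.0854. Genes of the major histocompatibility region on chromosome 6 were less reliable: 6 of 98 tested (6.1%) had at some time point 3 reads or fewer in one library and 5 CPM or more in its replicate, against 0.21% of other genes.

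Of 17559 genes tested with edgeR's quasi-likelihood test, 10294 (58.6%) were called changed at an adjusted p under 0.05. They were 5562 called higher at 72 h (31.7%) and 4732 called lower (26.9%), and 7265 genes were not called. Large changes were more often rises. With genes at 0 in a group set to the lower bound that 3 reads per library allow, changes of at least 4-fold were called for 1752 genes upward and 484 downward, and of at least 64-fold for 273 upward and 12 downward. The 2 libraries of a group lay entirely above or below the other 2 in 5502 of the genes called higher and 4681 of those called lower. Since 58.6% of all genes were called, a list's counts are given beside its median log2 fold change and are read against these shares and against the median of all tested genes, which was -0.032.

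**Figure D1:**
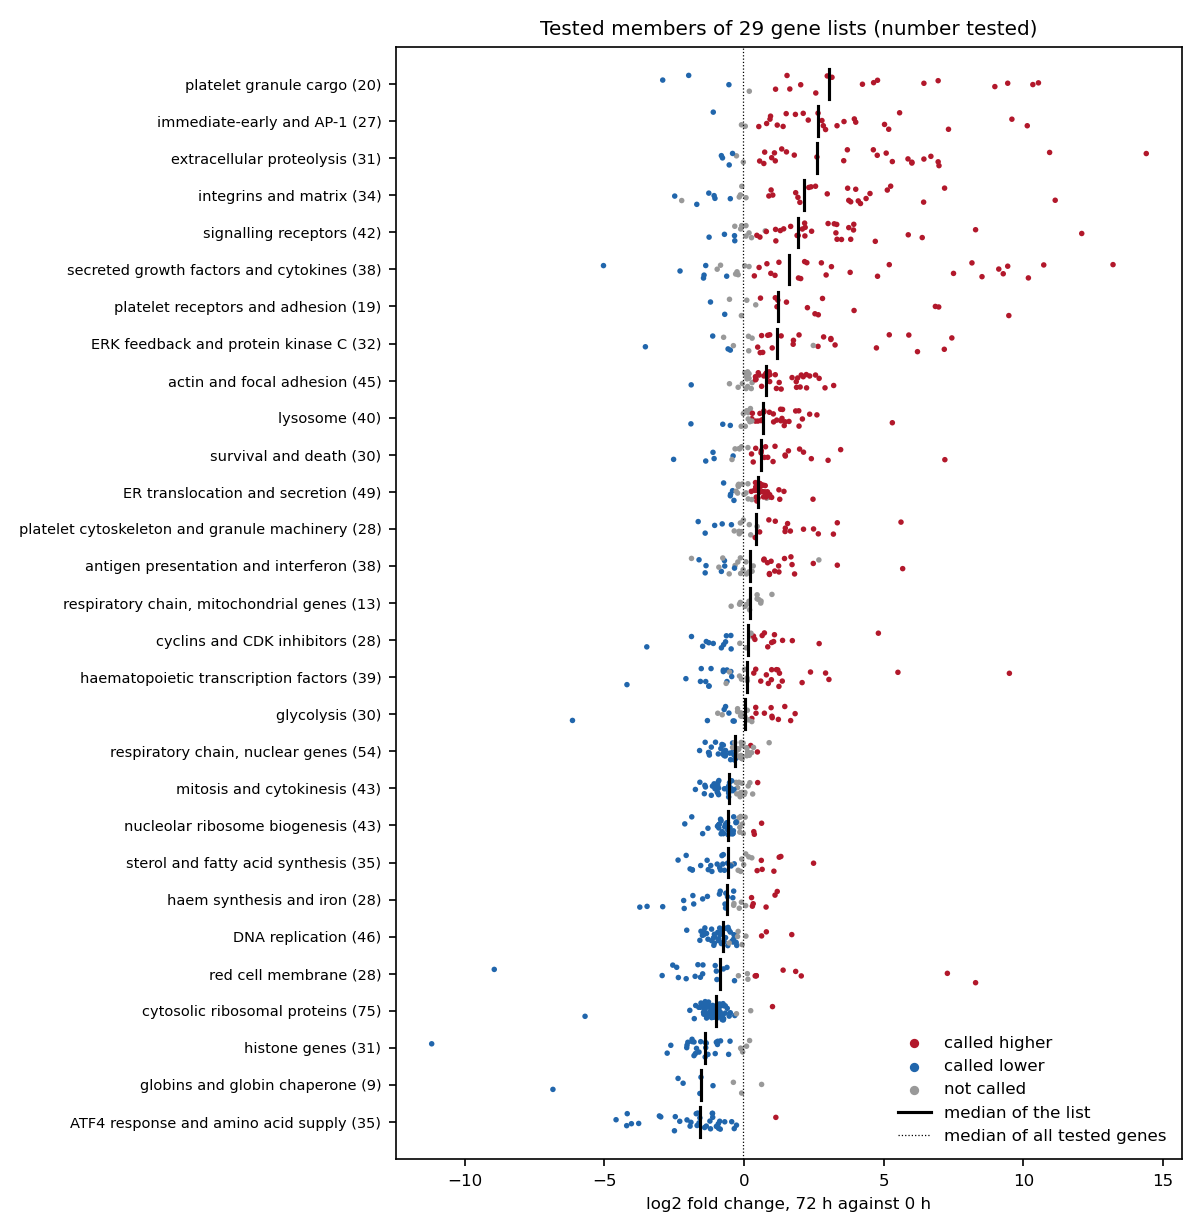
Log2 fold change (72 h against 0 h, x axis) of every tested member of 29 gene lists (rows, with the number tested), coloured by the call of edgeR's quasi-likelihood test. Black bars mark list medians, which run from -1.58 for the amino acid supply list to 3.06 for platelet granule cargo, and the dotted line marks the median of all tested genes.

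The sequences of 6 promoters are shown first, because they belong to genes whose levels the account below turns on and because each holds a motif that was searched for. Each is the 250 bases before the annotated start of the gene, from RefSeq on GRCh38.p14, written 5′ to 3′ on the gene's own strand. Capitals mark motif matches on either strand, and the names of the motifs follow the sequences.
PCSK1: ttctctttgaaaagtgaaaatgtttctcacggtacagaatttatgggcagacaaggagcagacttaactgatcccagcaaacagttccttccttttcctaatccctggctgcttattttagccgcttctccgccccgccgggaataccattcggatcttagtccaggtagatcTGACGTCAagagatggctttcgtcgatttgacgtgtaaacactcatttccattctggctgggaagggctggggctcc
EGR1: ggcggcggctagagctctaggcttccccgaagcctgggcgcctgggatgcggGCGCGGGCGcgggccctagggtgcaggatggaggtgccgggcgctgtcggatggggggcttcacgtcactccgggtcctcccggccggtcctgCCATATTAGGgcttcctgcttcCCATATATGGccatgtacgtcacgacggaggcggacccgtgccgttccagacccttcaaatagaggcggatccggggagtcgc
TPM4: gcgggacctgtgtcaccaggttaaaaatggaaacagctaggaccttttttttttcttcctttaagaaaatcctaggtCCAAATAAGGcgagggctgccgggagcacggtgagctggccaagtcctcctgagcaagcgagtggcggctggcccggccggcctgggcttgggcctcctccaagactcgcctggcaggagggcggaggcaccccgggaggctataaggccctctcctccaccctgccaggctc
EPB42: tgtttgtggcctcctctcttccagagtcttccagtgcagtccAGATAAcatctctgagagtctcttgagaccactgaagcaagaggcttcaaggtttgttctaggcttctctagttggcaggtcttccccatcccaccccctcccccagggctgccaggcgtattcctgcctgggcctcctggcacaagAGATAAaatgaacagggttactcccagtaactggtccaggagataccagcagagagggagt
MS4A3: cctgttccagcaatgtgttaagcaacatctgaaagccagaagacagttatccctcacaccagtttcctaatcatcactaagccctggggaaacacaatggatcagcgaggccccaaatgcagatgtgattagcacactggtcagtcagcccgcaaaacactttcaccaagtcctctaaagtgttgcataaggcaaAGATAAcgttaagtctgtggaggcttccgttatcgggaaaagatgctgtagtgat
PKLR: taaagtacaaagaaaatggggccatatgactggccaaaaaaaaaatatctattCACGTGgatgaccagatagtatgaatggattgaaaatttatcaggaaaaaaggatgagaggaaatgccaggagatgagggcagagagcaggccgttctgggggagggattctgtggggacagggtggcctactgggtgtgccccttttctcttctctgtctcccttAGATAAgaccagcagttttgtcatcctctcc

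The PCSK1 window (chr5:96433249-96433498, minus strand) held 1 CRE letter string, and the EGR1 window (chr5:138465229-138465478, plus strand) held 1 EGR string and 2 CArG boxes, the element that serum response factor binds. The TPM4 window (chr19:16067288-16067537, plus strand) held 1 CArG box. The GATA string occurred 2 times before EPB42 (chr15:43221019-43221268, minus strand), 1 time before MS4A3 (chr11:60056415-60056664, plus strand) and 1 time before PKLR (chr1:155301439-155301688, minus strand), which also held an E-box. PCSK1, EGR1 and TPM4 were called higher at 72 h and EPB42, MS4A3 and PKLR lower, with the values given below. These 6 were chosen among the named genes that held a motif, so no pattern of direction by motif can be read from them. In windows reaching 50 bases past the start, GATA strings also occurred at INHBA and TSPO2, which rose. They occurred as well at KLHDC7B, RAB27A, UQCRH and HSPA5, which fell. CArG boxes likewise occurred at BCL2 and CNN2, which fell.

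Platelet and megakaryocyte genes rose as a group, most of all the cargo of platelet granules. Of 20 tested cargo genes, 16 were called higher and 3 lower, with a median log2 fold change of 3.06, and in all 16 the rise was at least 2-fold. THBS1, the adhesive glycoprotein thrombospondin 1, was at 3.53 and 3.54 CPM at 0 h and at 4916 and 4271 CPM at 72 h, which gave a log2 fold change of 10.34 (SE 0.23, adjusted p = 4.47e-13). TIMP1, an inhibitor of matrix metalloproteinases that platelets carry, went from 81.1 and 137 CPM to 8618 and 10336 CPM. In deposited TPM, a level per transcript length, TIMP1 stood at 280 ± 73.1 at 0 h and 26348 ± 3792 at 72 h (SD, n = 2), where among protein-coding genes only MT-ATP8 was higher. PDGFB and PDGFA, the chains of platelet-derived growth factor, had log2 fold changes of 9.44 (SE 0.23) and 4.78 (SE 0.14). LTBP1, which tethers latent TGF-β, went from 33.8 and 38.5 to 718 and 647 CPM, and TGFB1 itself from 103 and 163 to 403 and 680 CPM.

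Other cargo genes stayed far lower. VWF, the von Willebrand factor of endothelial cells and platelets, had no read at 0 h and 1.7 and 2.03 CPM at 72 h, so it was at least 19.8-fold higher, taking 3 reads per library at 0 h. The same bound was 58.3-fold for MMRN1, multimerin, at 6.16 and 4.84 CPM. PPBP, a platelet chemokine precursor, was called higher at 0.641 and 0.312 CPM. PF4, the chemokine most typical of platelets, fell under the low-count filter together with PF4V1, F13A1, VEGFC and FGB. The 3 cargo genes that fell were GAS6 (-2.91), IGF1 (-1.98) and ANGPT1 (-0.54 in log2), which encode ligands of TAM receptors, the IGF1 receptor and TEK. ANGPT1 was not called without the first 0 h library (adjusted p = 0.279) or the second 72 h library (0.201).

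Surface receptors of platelets showed a partial set. Of 28 listed, 19 were tested, 13 were called higher and 2 lower, with a median of 1.21. ITGB3, the β3 integrin chain, went from 1.75 and 1.29 CPM to 1176 and 1008 CPM, a log2 fold change of 9.48 (SE 0.16, adjusted p = 7.13e-14). Its partner ITGA2B, the αIIb chain, was at 52.6 and 62.9 CPM at 0 h and at 59.4 and 64.4 CPM at 72 h, and its log2 fold change was 0.10 (SE 0.11, adjusted p = 0.432). The ITGB3 groups were far apart, while those of ITGA2B overlapped. ITGB3 shares 0.564 of its 31-base words and 0.516 of its exonic length with another annotated gene at the same place, so its absolute level is uncertain. The collagen receptor chain ITGA2 rose from 1.23 and 1.16 to 162 and 140 CPM and the tetraspanin CD9 from 0.338 and 0.354 to 40.5 and 40.1 CPM. The thrombin receptors F2R and F2RL3 rose by 2.66 and 1.21 in log2. The other way, P2RY1, an ADP receptor, fell from 57.7 and 45 to 25.4 and 19.3 CPM, and CD36, a scavenger receptor that binds thrombospondin, by 0.69 (SE 0.27). The call of CD36 was lost without any 1 of the 4 libraries, with adjusted p from 0.0529 to 0.178. The von Willebrand receptor genes GP1BA and GP9, and SELP, CLEC1B, TREML1, P2RY12 and ADRA2A fell under the filter. GP1BB could not be judged, since it shares its whole sequence with another annotated gene and was at 0 in one 72 h library and at 58.4 CPM in the other.

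The shape and granule machinery of platelets rose in part. Of 28 genes, 14 were called higher, 5 lower and 9 not called, with a median of 0.44. The largest rise was that of BIN2, an amphiphysin-like membrane protein, from 0.123 and 0 to 2.7 and 3.84 CPM. TPM4, a tropomyosin, rose from 121 and 139 CPM to 1316 and 1323 CPM, MYH9, the heavy chain of non-muscle myosin, from 242 and 282 to 1103 and 1193 CPM, and FLNA, the actin cross-linker filamin A, from 1104 and 1291 to 3336 and 3311 CPM. TUBB1, the β-tubulin of platelets, reached 16.1 and 14.7 CPM from 2.46 and 2.41. Against the direction of the list, RAB27A, a granule docking GTPase, fell by 1.39 and CNN2, a calponin, by 1.64 in log2. PLEK, pleckstrin, a protein kinase C substrate of platelets, was near 1 CPM in every library and was not called (adjusted p = 0.624).

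**Figure D2:**
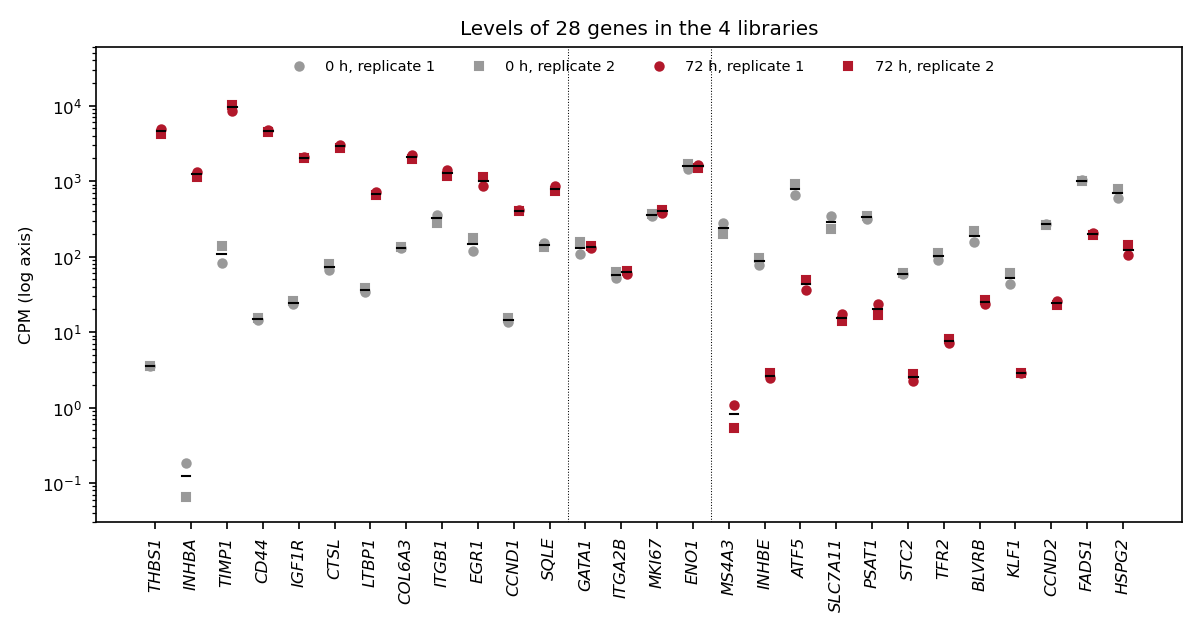
CPM (log axis) of 28 genes in the 4 libraries, grey for 0 h and red for 72 h, circles for replicate 1 and squares for replicate 2, with bars at the mean of each pair. In the left group, from THBS1 to SQLE, all 72 h libraries lie above the 0 h libraries, and in the right group, from MS4A3 to HSPG2, all lie below. The 4 genes between them, GATA1, ITGA2B, MKI67 and ENO1, were not called.

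Transcription factors of blood lineages split. Of 39 tested, 18 were called higher and 14 lower, with a median of 0.11 that turned to -0.05 when libraries were scaled to total counts. ERG and FLI1, ETS factors of megakaryocytes and endothelium, rose from 0.0614 and 0 to 26.4 and 24.4 CPM and from 0.0614 and 0.129 to 4.43 and 4.53 CPM. GATA2 rose by 1.25 (SE 0.16) and MEIS1 by 1.21 (SE 0.10) in log2. KLF1, the erythroid Krüppel-like factor, fell from 43.8 and 61.4 CPM to 2.9 and 2.84 CPM, a log2 fold change of -4.19 (SE 0.18). MYB and MYC, which drive progenitor growth, fell by 2.08 and 1.37. GATA1, the factor shared by red cells and megakaryocytes, was at 107 and 155 CPM at 0 h and at 129 and 137 CPM at 72 h, so that the groups overlapped (adjusted p = 0.923). RUNX1 and NFE2, both needed by megakaryocytes, fell by 0.61 and 0.74.

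Red cell genes fell, though not the most abundant globins. Among 9 tested globin genes, counting the chaperone AHSP, edgeR called 6 lower and 0 higher, with a median of -1.54. At an unadjusted p under 0.05 the number higher was 1, and with DESeq2 it was 0. AHSP, the chaperone of free α-globin, went from 1.63 and 2.61 CPM to 0 and 0.0312. The α-like genes HBA1, HBA2, HBZ and HBQ1 fell by 1.54, 1.58, 2.18 and 2.36 in log2, and the embryonic HBE1 by 1.11. The foetal HBG2, with the highest level of the list, was at 736 and 905 CPM and then at 758 and 506 CPM (log2 fold change -0.38, adjusted p = 0.133). Without the first 72 h library HBG2 was called lower, by 0.70 (adjusted p = 0.0198). HBG1 was not called (adjusted p = 0.725). HBG1, HBG2, HBA1 and HBA2 share between 0.704 and 0.837 of their 31-base words with other transcripts, so reads may be split between near copies.

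Of 28 red cell membrane genes, 17 were called lower and 8 higher, with a median of -0.85. The glycophorins GYPB, GYPC and GYPE fell by 2.35 to 2.93 in log2. EPB42, protein 4.2 of the membrane skeleton, went from 1.6 and 2.03 CPM to no read, at least 20.4-fold lower. CD44, the hyaluronan receptor that also carries the Indian blood group, went the other way, from 14.3 and 15.2 CPM to 4823 and 4436 CPM (log2 fold change 8.29, SE 0.14), and in TPM from 13.5 ± 1.96 to 3904 ± 39.5 (SD, n = 2). TSPO2, an erythroid relative of the translocator protein, appeared at 0.641 and 0.5 CPM from no read. AQP1, the water channel, and TMOD1, tropomodulin, also rose, by 2.05 and 1.40.

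Haem synthesis and iron genes fell in 17 of 28 and rose in 6, with a median of -0.62. TFR2, the second transferrin receptor, went from 90.3 and 112 to 7.16 and 8.03 CPM. ALAS2, the erythroid form of the first enzyme, fell by 1.83, while ALAS1, its housekeeping form, rose by 0.30 (SE 0.10), a call that was lost without the first 0 h library (adjusted p = 0.182) or the first 72 h library (0.0593). The last enzyme, FECH, fell by 2.16 and biliverdin reductase B (BLVRB) by 2.91. Among those that rose, the haem exporter FLVCR1 went from 36.6 and 32.7 to 89.9 and 67.9 CPM and NCOA4, the receptor for ferritin breakdown, from 223 and 190 to 513 and 377 CPM. TFRC, the main transferrin receptor, was not called (adjusted p = 0.603), and the ferritin light chain FTL rose from 1467 and 2184 to 2966 and 3357 CPM.

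Genes that PMA is known for inducing within minutes were still high on the third day. Of 27 tested immediate-early and AP-1 genes, 24 were called higher and 1 lower, with a median of 2.65. EGR3 went from 0.184 and 0.225 to 145 and 175 CPM, and FOSB from 6.14 and 4.6 to 228 and 285 CPM. EGR1, the most abundant of the list, went from 118 and 175 to 875 and 1148 CPM (log2 fold change 2.79, SE 0.20). EGR4 had no read at 0 h and 3.07 and 5.31 CPM at 72 h, a bound of at least 44.4-fold. The EGR corepressors NAB2 and NAB1 rose by 2.65 and 1.40, and the growth-arrest gene BTG2 from 10.2 and 11.9 to 362 and 361 CPM. JUND and SRF were not called (adjusted p = 0.874 and 0.607). ATF3, a stress-induced factor, was the exception and fell by 1.1. IER3, a gene of the histocompatibility region, fell under the filter.

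Feedback inhibitors of the same cascade were higher too. Of 32 genes of ERK feedback and protein kinase C, 22 were called higher and 4 lower, with a median of 1.17. DUSP5, a nuclear ERK phosphatase, went from 3.84 and 4.28 CPM to 753 and 659 CPM, and DUSP4 from 0.522 and 0.579 to 33 and 33.2 CPM. PHLDA1 rose by 6.21, the EGF receptor inhibitor ERRFI1 by 5.20, and both SPRY4 and SPRY2, Sprouty inhibitors of RAS signalling, by 3.11. The kinases themselves moved apart. PRKCE rose from 0.829 and 1.48 to 30.3 and 31.3 CPM and PRKCA from 98.2 and 98.9 to 258 and 239 CPM. PRKCB, the protein kinase C gene with the highest TPM, fell by 0.49 and PRKCQ by 1.12, and PRKD1, a related kinase, went from 0.859 and 0.933 to 0 and 0.156 CPM. The PRKD1 call was lost without the first 72 h library (adjusted p = 0.0611).

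Most adhesion, matrix and proteolysis genes were higher at 72 h. Of 34 integrin and matrix genes, 23 were called higher and 6 lower, with a median of 2.16. ITGA6, the laminin receptor chain, went from 0 and 0.0644 to 84.2 and 74.7 CPM, ITGAX, the αX chain of leukocytes, from 3.87 and 3.57 to 120 and 140 CPM, and ITGB1, the shared β1 chain, from 361 and 281 to 1397 and 1170 CPM. Among matrix genes, the collagen VI chain COL6A3 rose from 130 and 134 to 2215 and 1994 CPM and the lysyl oxidase LOXL2 by 5.25. HSPG2, perlecan of basement membranes, went against the list, from 600 and 783 to 106 and 142 CPM. FN1, fibronectin, fell by 1.07 and ITGA4, one of its receptor chains, by 1.69.

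The actin and focal adhesion list rose more evenly, with 31 of 45 called higher and CORO1A alone called lower, at a median of 0.80. The largest rise was that of WIPF1, which binds the actin regulator WASP, from 10 and 11.1 to 99.7 and 96.4 CPM. VIM, vimentin, rose from 966 and 1075 to 4055 and 4158 CPM, PXN, the adhesion scaffold paxillin, from 105 and 139 to 583 and 668 CPM, and LIMS1, a partner of integrin-linked kinase, from 129 and 95.7 to 986 and 693 CPM. ACTB, β-actin, rose by 0.78 (SE 0.12), whereas ACTG1, γ-actin, was not called at 0.29 (SE 0.13, adjusted p = 0.0789) but was called without the second 0 h library (0.45, adjusted p = 0.0248).

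Of 31 genes of extracellular proteolysis, 25 were called higher and 4 lower, with a median of 2.61. PCSK1, a convertase of the secretory pathway, had no read at 0 h and 87.8 and 71.8 CPM at 72 h, which puts the rise at 846-fold or more. CTSL, cathepsin L, went from 65.5 and 79.4 to 3034 and 2729 CPM. The collagenase MMP1 rose from 0.46 and 0.0966 to 19.7 and 17 CPM and MMP19 from 1.87 and 2.12 to 66 and 70.1 CPM, while MMP9, often used to mark PMA responses, reached 1.87 and 1.75 CPM. Among inhibitors, SERPINB2, which acts on plasminogen activators, rose by 10.94 and TIMP3 by 6.98, while SERPINB6 fell by 0.53. PLAUR, the urokinase receptor, rose by 3.70. The 4 that fell, PCSK6, SERPINB6, MMP14 and ADAMTS1, changed by 0.41 to 0.81 in log2, and ADAMTS1 was not called without the second 0 h library (adjusted p = 0.131) or without the first (0.0594) or the second (0.115) at 72 h.

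Most secreted factors and signalling receptors tested were higher at 72 h. Of 38 growth factor and cytokine genes, 25 were called higher and 6 lower, with a median of 1.60. INHBA, the activin A subunit, went from 0.184 and 0.0644 CPM to 1322 and 1138 CPM, a log2 fold change of 13.21 (SE 0.27, adjusted p = 1.98e-13). INHBE, another activin subunit, moved the other way, from 77.9 and 94.9 to 2.45 and 2.84 CPM. The chemokine CCL2 reached 604 and 567 CPM from 0.491 and 0.515, and IL1B, interleukin 1β, 176 and 158 CPM from 0.0614 and 0.129. CXCL8, another chemokine, rose by 1.11, while CXCL2 and CXCL3 fell by 2.29 and 1.45. CCL3, called higher from no read, was at 2.2 and 0.469 CPM.

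Of 42 signalling receptors tested, 30 were called higher and 4 lower, with a median of 1.92. EGFR, the receptor of epidermal growth factor, had no read at 0 h and 16.3 and 16 CPM at 72 h and was therefore at least 171-fold higher. IGF1R, the IGF1 receptor, went from 23.7 and 25.6 CPM to 2075 and 2040 CPM (log2 fold change 6.38, SE 0.12). KIT, the stem cell factor receptor, reached 37.3 and 31.3 CPM from 0.89 and 0.257, and FLT1, a VEGF receptor, 68.6 and 62.4 CPM from 2.3 and 2.74. IL6ST, the signalling chain shared by interleukin 6 and LIF, rose by 3.29. TNFRSF10B, a receptor of the death ligand TRAIL, fell by 1.25.

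Growth genes did not fall as one block. Of 46 DNA replication genes, 38 were called lower and 3 higher, with a median of -0.75. CDT1, which loads the replicative helicase, went from 197 and 270 to 46.4 and 66.3 CPM, and MCM7, a helicase subunit, from 423 and 505 to 215 and 199 CPM. Going the other way, RRM2, the regulated subunit of ribonucleotide reductase, rose from 96.1 and 99.8 to 337 and 305 CPM (log2 fold change 1.71), and GINS3, a helicase cofactor, from 20.3 and 23.3 to 39.7 and 36.1 CPM. Both share 0.369 and 0.328 of their 31-base words with other transcripts. In TPM, RRM2 went from 112 ± 9.83 to 205 ± 22.5 and GINS3 only from 42.4 ± 1.73 to 44.8 ± 0.993 (SD, n = 2). The counts were summed without a correction for transcript length, and RRM2 changed in which transcript carried it, as given below. The part of such shifts in these 2 rises was not tested. The mitosis list held 27 of 43 genes called lower, 1 higher and 15 not called, with a median of -0.55. AURKB, CCNA2 and PLK1 fell by 1.58, 1.38 and 1.17, UBE2C, of the anaphase-promoting machinery, by 1.74 at a low level, and securin (PTTG1) by 0.91. ANLN, anillin of the cleavage furrow, was the gene called higher, by 0.49 (SE 0.10). MKI67, the proliferation marker, was at 346 and 367 CPM and then at 379 and 414 CPM (adjusted p = 0.249), and CDC20, BUB1 and CDK1 were not called either.

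D-type cyclins exchanged places. CCND1 went from 13.7 and 15.3 to 418 and 398 CPM, and CCND2 from 273 and 263 to 25.5 and 22.6 CPM, with both groups well apart. CCND3 rose by 1.09 and the kinase CDK4 fell by 1.48. CDKN1A, the inhibitor p21, rose from 12.5 and 14.8 to 82.9 and 92.9 CPM, while the inhibitors CDKN1B and CDKN2C fell by 0.73 and 1.26. GADD45A, a stress-induced partner of cell cycle kinases, rose from 80.9 and 100 to 218 and 255 CPM, and E2F2, a factor of S phase genes, fell from 68.9 and 80.8 to 19.5 and 21.2 CPM. In the whole list of 28 cyclin and inhibitor genes 12 were called higher and 12 lower. Its median of 0.16 was -0.11 without the first replicate at 0 h and -0.05 without the second at 72 h.

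Histone genes fell in 26 of 31, with a median of -1.38. edgeR called 0 higher, against 0 at an unadjusted p under 0.05 and 0 with DESeq2. The linker histone genes H1-2 and H1-4 went from 789 and 948 to 267 and 213 CPM and from 352 and 489 to 95.9 and 107 CPM, and H4C3 from 173 and 253 to 43.4 and 25.9 CPM. These genes encode replication-linked histones, whose messages mostly lack a poly(A) tail and are kept by the ribosomal RNA depletion used here. The replacement histone genes H3-3A and H3-3B were not called (adjusted p = 0.384 and 0.495). H3C4 shares all of its sequence with another annotated gene and is left aside.

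Ribosome genes fell almost throughout. Of 75 tested genes for cytosolic ribosomal proteins, 72 were called lower, 1 higher and 2 not called, with a median of -1.0. RPS19 went from 588 and 754 to 230 and 206 CPM, and RPS18, the member with the highest mean TPM over the 4 libraries, from 1558 and 1826 to 764 and 509 CPM. The summed TPM of the list was 188617 and 211603 at 0 h and 108266 and 102188 at 72 h. RPS4X, the X-linked small subunit protein, rose from 667 and 816 to 1448 and 1570 CPM. The size of the fall differed between replicate numbers, with list medians of -0.79 within replicate 1 and -1.22 within replicate 2. With the GC trend of each library removed the list median was -1.1. The gap between transcript length and effective length, which tracks fragment length, was 199 nt in the second 0 h library and 217 to 229 nt in the other 3, and its part in the list's fall was not tested. Many of these genes have processed copies, so single values carry that uncertainty. RPS9 (-5.69) had a standard error of 1.80, and its adjusted p was 0.0758 without the first 72 h library and 0.0801 without the second.

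Nucleolar genes that build ribosomes fell in 31 of 43 and rose in 3, with a median of -0.57. FBL, the methyltransferase fibrillarin, went from 195 and 271 to 65.9 and 61.5 CPM and BOP1, an assembly factor of the large subunit, from 93.6 and 126 to 23.7 and 26.7 CPM. NIP7, another assembly factor, rose by 0.63 (SE 0.12) and UBTF, the factor of RNA polymerase I promoters, by 0.37 (SE 0.10), though UBTF was not called in the fit of these 4 libraries alone (adjusted p = 0.135). NCL and NPM1, the abundant nucleolar proteins, fell by 0.56 and 0.67.

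**Figure D3:**
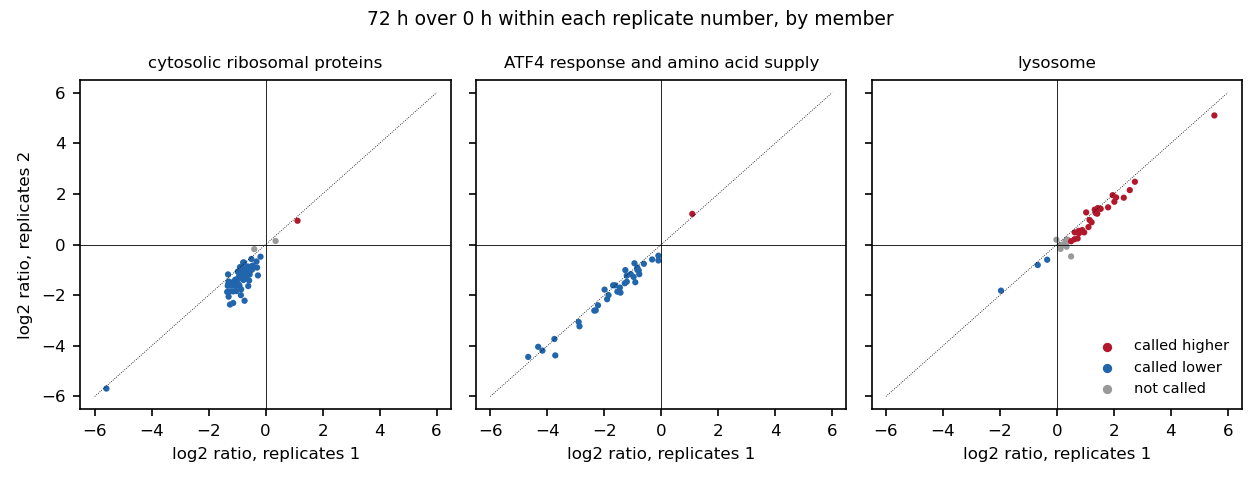
Log2 ratio of 72 h over 0 h for each tested member, replicates 1 on the x axis and replicates 2 on the y axis, for ribosomal protein, amino acid supply and lysosome genes, coloured by call. The lists fall, fall and rise in both replicate numbers, and ribosomal protein genes lie further below 0 in replicates 2, with medians of -0.79 and -1.22.

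Genes of amino acid supply fell almost throughout. ATF4, the transcription factor of the integrated stress response, and genes known as its targets were called lower in 34 of 35 cases, with a median of -1.58, and 25 of the falls were at least 2-fold. ATF5 went from 654 and 905 to 36.3 and 49.5 CPM, and PSAT1, an enzyme of serine synthesis, from 315 and 350 to 23.9 and 16.7 CPM. SLC7A11, the cystine transporter, went from 343 and 230 to 17.1 and 13.9 CPM, and STC2 from 58.7 and 60.6 to 2.26 and 2.75 CPM. ASNS, asparagine synthetase, fell by 3.03, PHGDH by 2.49, MTHFD2 by 2.30 and TRIB3 by 1.68, and ATF4 itself by 0.69 (SE 0.10). The transfer RNA synthetases WARS1, AARS1, MARS1, SARS1, GARS1 and NARS1 fell by 0.44 to 1.93. SLC38A2, a transporter of neutral amino acids, was the exception, at 713 and 462 CPM and then 1516 and 1070 CPM. Because the medium was renewed after 24 and 48 h, a difference in amino acid supply and PMA cannot be told apart here.

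Lysosome genes rose while much of lipid synthesis fell. Of 40 lysosome genes, 27 were called higher and 3 lower, with a median of 0.68. Beside CTSL, the largest rises were those of CTSB (2.61), the autophagy receptor SQSTM1 (2.35), the tetraspanin CD63 (2.09) and the cholesterol transporter NPC1 (1.97). Against the list, GAA, the acid α-glucosidase, fell by 0.76 (SE 0.23), but was not called without the second 0 h library (adjusted p = 0.0948) or the first at 72 h (0.0748). TFEB, a master regulator of lysosome genes, rose by 1.61, and MITF, of the same family, went from 28.4 and 24.2 to 7.27 and 6.81 CPM. In the secretory pathway 32 of 49 genes were called higher and 5 lower, with a median of 0.50, which was 0.32 without the first 72 h library. The signal peptidase subunit SEC11C rose by 2.47 and the chaperones HSP90B1 and CALR by 1.25 and 0.99, while HSPA5 (BiP) fell by 0.49 and XBP1 by 0.73.

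Of 35 sterol and fatty acid genes, 20 were called lower and 7 higher, with a median of -0.59. The desaturase FADS1 went from 1029 and 1010 to 207 and 191 CPM, and SCD fell by 1.85. SREBF1, the factor of fatty acid synthesis, fell by 1.55 and FASN by 1.28. Within cholesterol synthesis the enzymes parted. SQLE, squalene epoxidase, rose from 150 and 134 to 855 and 739 CPM, whereas LSS, which acts on its product, fell from 103 and 120 to 24.7 and 28.6 CPM and MVK by 1.93. MSMO1, a later enzyme, rose by 1.32.

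Energy genes changed less. Of 54 nuclear genes of the respiratory chain, 25 were called lower, 2 higher and 27 not called, with a median of -0.32. The median was -0.10 within replicate 1 and -0.55 within replicate 2, and -0.20 and -0.19 without the second library at 0 h or at 72 h. CYC1, cytochrome c1, had the largest fall, by 1.59. UQCRH, with the highest TPM, fell by 0.67, while SDHA and NDUFV2 rose by 0.48 and 0.24. The NDUFV2 call was lost without either 0 h library (adjusted p = 0.12 and 0.0516) or without the first at 72 h (0.299). Of the 13 mitochondrial genes, edgeR called 0, 0 had an unadjusted p under 0.05, DESeq2 called 0, and the list median was 0.20, between 0.10 and 0.37 with 1 library left out. A fit of only these 4 libraries called 4 of them and a fit with no low-count filter 7, and without the first 0 h library 1 was called, MT-ATP8 (adjusted p = 0.0326). Of 30 glycolysis genes, 11 were called higher and 7 lower, with a median of 0.02. The pyruvate kinase gene PKM rose from 361 and 434 to 915 and 944 CPM, and PKLR, the gene of its liver and red cell form, went from 38.1 and 43.5 to 0.641 and 0.5 CPM. SLC2A3 and SLC2A1, glucose transporters, rose by 1.83 and 1.00, and LDHB fell by 1.31.

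Of 30 survival and death genes, 19 were called higher and 5 lower, with a median of 0.61. BCL2A1 and MCL1, which protect from apoptosis, rose from 0.0614 and 0.0322 to 7.52 and 7.34 CPM and from 294 and 255 to 1243 and 940 CPM. BCL2 fell from 5.19 and 4.18 to 1.14 and 0.469 CPM. Genes that promote death moved both ways, with BMF and BAK1 higher by 3.46 and 1.59 and BBC3 and BID lower by 1.37 and 1.11.

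Genes of antigen presentation and the interferon response were mixed, with 16 of 38 called higher, 7 lower and a median of 0.23, which was 0.46 without the second 0 h library and 0.39 without the first at 72 h. IFI16, a DNA sensor, went from 0.859 and 0.74 to 44.1 and 38.2 CPM, B2M from 233 and 234 to 472 and 406 CPM, and IFITM1, which blocks virus entry, fell from 316 and 409 to 121 and 116 CPM. Its relative IFITM3 fell by 1.39. HLA-B, HLA-C and 8 further listed genes fell under the filter, and reads of the histocompatibility genes may have gone to transcripts left out of the gene counts, which was not tested.

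Markers of other blood and stromal cells were measured in the same libraries. The megakaryocyte list went from a summed 67.85 and 102.3 CPM to 1295 and 1189 CPM. ITGB3 alone, whose absolute level is uncertain, made up 1176 and 1008 CPM of the 72 h sums. GP1BB, which could not be judged, added 0 and 58.4 CPM, so the sum says little about the other markers. Of the 12 markers 5 were called higher, and GP9 and PF4 were at 3 reads or fewer in every library. The erythroid list went from 2036 and 2424 to 1776 and 1355 CPM, with 7 of 12 called lower. Of 12 granulocyte markers, 3 were called higher and 4 lower. Their sum went from 284.1 and 211.6 to 28.67 and 29.52 CPM, because MS4A3, a membrane protein of granulocyte precursors, made up most of it at 276 and 201 CPM at 0 h and 1.09 and 0.531 CPM at 72 h. Without MS4A3 the sum went the other way, from 8.07 and 10.1 to 27.6 and 29 CPM, led at 72 h by the granule enzyme MPO, which went from 0.0614 and 0.0644 to 23.5 and 22.6 CPM. The granule protein genes ELANE, AZU1 and CTSG had at most 3 reads in each library. PRTN3, a granule protease gene, was called lower, from 0.276 and 0.29 to 0.0279 and 0.0937 CPM. Endothelial markers rose in 7 of 10 cases, from 24.21 and 26.52 to 380.1 and 397.6 CPM, led by TIE1, and fibroblast markers in 5 of 10, from 11.45 and 13.45 to 236.7 and 254.9 CPM, led by COL1A1, with LUM, FAP and POSTN at 3 reads or fewer. TIE1, at 299 and 328 CPM, and COL1A1, at 196 and 218 CPM, made up most of these 72 h sums. The monocyte list changed less, from 143.2 and 163.9 to 228.2 and 255.3 CPM, with 3 of 14 called higher and 3 lower.

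**Figure D4:**
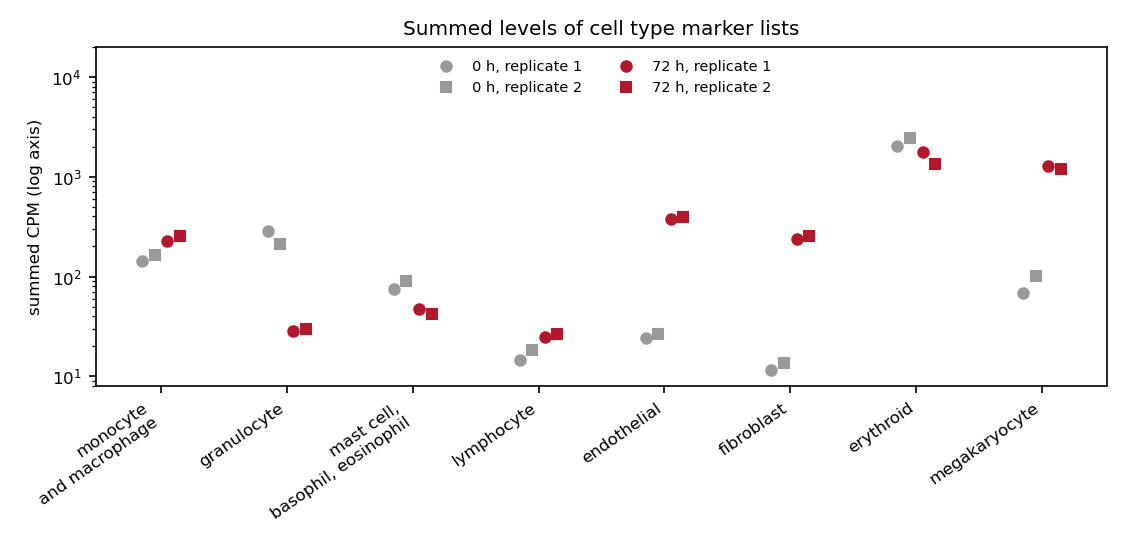
Summed CPM (log axis) of 8 cell type marker lists in each library, grey for 0 h and red for 72 h, circles for replicate 1 and squares for replicate 2. The megakaryocyte, endothelial and fibroblast sums rise at 72 h, mostly through ITGB3, TIE1 and COL1A1. The granulocyte sum falls through MS4A3, and without it goes from 8.07 and 10.1 to 27.6 and 29 CPM.

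The 12 largest rises among protein-coding genes with at least 10 CPM at 72 h include PCSK1, described above. Most had no read at 0 h, so that their order depends on the fit and is not read here. The actin regulator CORO2B, on chromosome 15 (68578969 to 68727806, plus strand, GRCh38), had no read at 0 h and 69.3 and 74.5 CPM at 72 h, and so was at least 762-fold higher. CEMIP, a hyaluronan-degrading factor, reached 52.5 and 49.7 CPM, and DMBT1, a scavenger receptor cysteine-rich protein, 51.1 and 47.9 CPM, again from no read. APCDD1L, the collagen gene COL22A1, the mucin MUC16 and PCDHGC5, a protocadherin that overlaps other genes of its cluster, also had no read at 0 h, and their bounds were 309-fold to 649-fold. INHBA and the glycoprotein hormone STC1 had a few reads at 0 h, and STC1 went from 0.583 and 0.322 CPM to 3584 and 3497 CPM. FAM83H and LY6E complete the 12, but at another time point each had 1 library at 3 reads or fewer beside a replicate at 5 CPM or more, so their zeros are less certain.

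The 12 largest falls were led by MS4A3 and included MS4A4A, a relative of MS4A3, from 22 and 21.2 to 0.167 and 0.156 CPM. KLHDC7B went from 16.2 and 23.4 to 0.195 and 0.25 CPM and S100P, a calcium-binding protein, from 27.5 and 34.3 to 0.585 and 0.469 CPM. HEPACAM2, PKLR, the AP-1 repressor JDP2, the sodium channel SCN4A, FOXH1, a partner of activin-regulated SMADs, and INHBE fell by 5.03 to 6.28 in log2. RPS9 is also among the 12, and its uncertainty is given above.

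Some genes changed in which transcript carried their level. Among 8056 genes with at least 10 TPM in each of the 4 libraries, 7675 of them with several annotated transcripts, 120 had a transcript whose share of the gene's TPM differed by at least 30 percentage points between the group means, with groups apart and at least 20 points within each replicate number. These are shares estimated from short reads and are described without a test. The share of the short noncoding transcript FAM178B-206 went from 10.5 and 7.2% to 92.9 and 84.5% while the gene as a whole fell by 4.59 in log2. GRAMD2B-203 went from 94.0 and 95.7% to 21 and 29.1% and SMIM14-207 from 86.3 and 85.9% to 14.8 and 35.5%, in genes called higher from summed counts. In mean TPM, GRAMD2B went from 16.6 to 48.7 and SMIM14 only from 28.1 to 32.2. XAGE1A-201, AKAP13-220 and RGS3-232 complete the 6 largest. RGS3-232, a protein-coding form of a G protein regulator, was at 0.0% in both 0 h libraries and at 58.6 and 55.4% at 72 h, while the gene changed by -0.46. Chosen after the values were seen, RRM2-201 went from 30.8 and 21.4% to 70.9 and 73.3% and FURIN-201 from 10.5 and 8.5% to 64.2 and 53.2%, at genes that were called higher.

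Promoters were searched for 7 letter strings, and the shares that held them are described without a test. A promoter window, here 250 bases before to 50 after the start, was found for 12159 of the 17559 tested genes, 1215 of them called higher and 264 called lower with a fitted change of at least 4-fold. The AP-1 string TGANTCA occurred on either strand in 10.0% of the windows of genes that rose, in 2.65% of those that fell and in 5.03% of all. The GATA string AGATAA was found in 8.97% of those that rose and 11% of those that fell, against 5.91% of all. The ETS string CCGGAAGT was found in 1.89% and 2.65%, against 7.76%, and the E-box CACGTG in 6.09% and 8.71%, against 9.59%. For EGR, GCGNGGGCG, the shares were 15.5, 12.1 and 14.5% in the same order, for CRE, TGACGTCA, 2.06, 1.89 and 3.04%, and for the CArG box 1.81, 3.03 and 1.14%. The EGR, ETS and E-box strings are rich in G and C, and the GATA string and CArG box in A and T. Base composition was not matched between the groups. A match is a description of letters and not of binding.

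**Figure D5:**
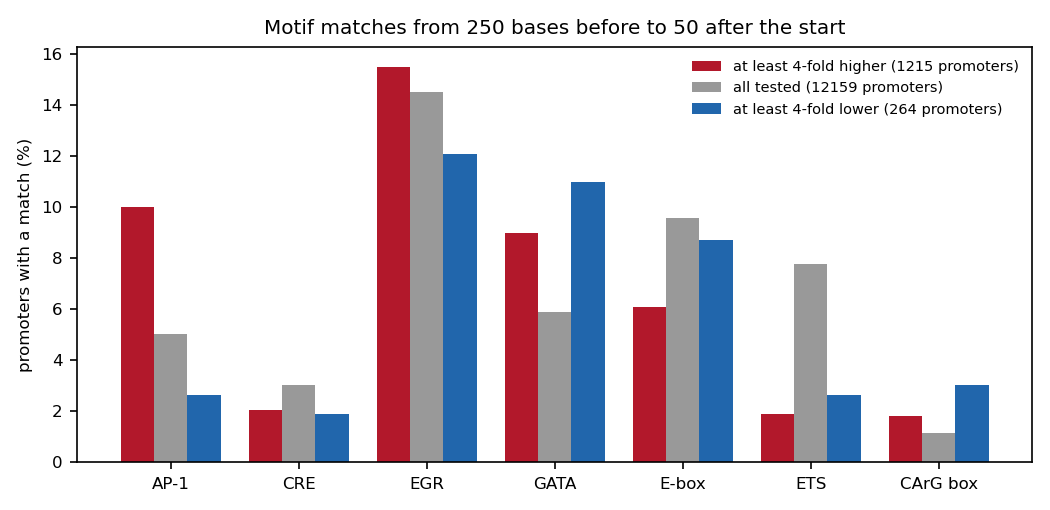
Percentage of promoter windows with at least 1 match on either strand (y axis) for 7 motifs (x axis), in genes called at least 4-fold higher (red), all tested genes (grey) and genes called at least 4-fold lower (blue). AP-1 matches are the most frequent relative to all genes among those that rose, at 10.0% against 5.03%, and the ETS string is less frequent in both groups than in all genes.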

How the data were processed

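The 2 libraries at 72 h and the 2 at 0 h were compared within a fit of all 16. The estimated counts per transcript (column names of salmon) and the TPM values, scaled per transcript length, were deposited by the authors, per the file headers, and the transcript lengths and effective lengths beside them are the authors' values too. Per the submitters' processing notes, Trim Galore 0.4.3, Salmon, HISAT2 2.1.0, SAMtools 1.9, deepTools 3.0.1, R 3.3.1, DESeq2 and DESeq 1.33.5 were used. The role of each tool is not given in the sources used here. Both hg19 and hg38 are listed there.

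Transcripts were matched by Ensembl identifier to GENCODE release 29 (GRCh38): 167027 of 177456 (94.1%) matched, in 35052 genes, and those without a match, 3.087 to 3.754% of the reads of these 4 libraries, were left out. Counts were summed per gene and rounded. Under R 4.3.3, edgeR 4.0.16 was run with filterByExpr and TMM factors, by its quasi-likelihood F-test and Benjamini-Hochberg adjustment over all 17559 tested genes. The common coefficient of variation between replicate libraries, beyond counting error, was estimated at 0.123 and may be technical. Standard errors are given for log2 fold changes, except where a group is at 0; such folds are bounds against 3 reads per library and cover counting error only. With 2 libraries a side the smallest 2-sided p of an exact permutation test is 0.333. The fit was tested on simulated data first.

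The lists, their members and the naming rule were chosen with earlier results of these data known. The rule took the 12 largest rises and falls among called protein-coding genes with at least 10 CPM in the higher group, replicates within 2-fold, groups apart and at most 50% overlap or shared 31-base words. From each list it took the largest rise, the largest fall, the highest mean TPM and up to 2 genes called against the median. Further genes were chosen from the lists for their known roles after their values were seen, not in order of size as the rule had it. GP6, RRN3, RPL7A, NEU1, H2AC18 and H3C2 are not analysed here, and some genes that the rule names are not reported.

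Alternatives were other scalings and filters, DESeq2 1.42.0, other fits and thresholds, counts from TPM, removal of GC trends and each library left out.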

Additional observations from a re-analysis of the deposited data

How the results depend on the processing

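The number of genes called, 10294 of 17559, ranged from 9155 to 10230 with 1 library left out, and was 9711 with DESeq2, 10640 with total-count scaling and 11504 with the GC trend removed. Of the called genes, 54% were higher; the share was 48.2% with the GC trend removed and 44.5% with total-count scaling, which moved the median of all genes from -0.032 to -0.189, and 70.2% when each gene was tested against a 2-fold change. No label says that a replicate number marks a shared culture or day, and the difference between replicates 1 and 2 at 0 h and at 72 h correlated at r = 0.111 across genes. With the number as a replicate block 10657 genes were called. A fit of these 4 libraries alone called 7793 of 16511, or 9836 with the block.

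Tested against a 2-fold change, 3435 genes were called, 2413 higher and 1022 lower. The members called were then 9 of the platelet receptors, 12 of platelet cytoskeleton, 12 of the blood transcription factors, 16 of red cell membrane, 9 of haem and iron, 15 of ERK feedback, 17 of actin, 19 of proteolysis, 9 of cyclins, 10 of DNA replication, 5 of mitosis, 4 of nucleolar genes and 16 of ribosomal proteins. They were 2 of nuclear respiratory genes, 6 of glycolysis, 8 of sterol synthesis, 15 of lysosome, 4 of secretory pathway, 21 of amino acid supply, 9 of survival and 9 of antigen presentation. Growth factors had 20 called with at least 10 counts in every library, and the secretory pathway 23 in the 4-library fit. Mitochondrial genes had 4 in that fit, 7 with no filter, 6 with the block in 4 libraries and 0 to 1 with a library left out. The median of blood transcription factors was -0.05 with total-count scaling and -0.07 to 0.31 with a library left out, including -0.02 without the second at 72 h. That of cyclins was -0.11 to 0.27, including -0.05 without the second at 72 h. GP1BB ranged from -12.53 without the second 72 h library to 1.63 without the second at 0 h.

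Isoform changes numbered 207 with genes from 5 TPM and 56 from 20 TPM. With genes called at least 2-fold, promoter shares were 7.8% for AP-1 and 3.58% for ETS in higher genes and 6.63% for GATA in lower genes. Of 464 list medians under alternatives, 341 moved by less than the spread between replicates, 118 moved more and 5 reversed. With at least 10 counts in every library the median was 0.87 for growth factors, 1.40 for proteolysis and 0.57 for antigen presentation, and with total-count scaling 0.08 for antigen presentation, 0.28 for platelet cytoskeleton and 0.33 for the secretory pathway, which was also 0.33 with the GC trend removed. Glycolysis had a median of either sign. The cause of these differences was not tested. Of 4042 single-gene values, 3876 kept the call, with the direction kept too or, in genes not called, a shift within 1 standard error. The call was lost in 120 and gained in 25, and 1 value reversed. A further 20, of genes not called, changed sign by more than that shift. With 2 libraries a side, small changes are the least certain.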
